A study of Mus musculus with 13 samples.

Results

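Chemokine and chemokine receptor genes were described in murine liver, by their level in a table that holds 1 pooled value for each gene. The set was given as 9 symbols (Cxcl1, Cxcl9, Cxcl10, Cxcl12, Cxcl16, Ccl6, Ccl9, Ccl24 and Cx3cr1), chosen from earlier results on the same livers, and 6 of them are among the 11779 genes listed. Cxcl10, Ccl24 and Cx3cr1 were not analysed here. RNA was sequenced from the livers of 3 Balb/c mice given GalNAc-conjugated ASOs against the lncRNA LL35 (Liver LL35 ASO, a mix of 5 oligonucleotides) and of 3 Balb/c mice given a GalNAc-conjugated ASO against firefly luciferase (Liver Luc ASO), all collected on day 5 after injection into the tail vein. The number 5 is that of the labels and the text of the study, whereas its supplementary list for mice holds fewer LL35 oligonucleotides. For the LL35 ASO livers, the labels give a dose of 150 mg/kg for each ASO, whereas the methods of the study give the same figure as the total of the mix. No dose is given in the labels for the Luc ASO livers. GalNAc is a sugar that carries an oligonucleotide into hepatocytes, so other liver cells were not the intended target. All 6 mice received an ASO, and no untreated liver entered the table. The age and sex of the mice are not given in the sources used here. The libraries of the hepatocyte line AML12 were not analysed here.

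The value used is the mean normalized count, averaged by the authors over the compared livers of both groups. It carries no spread and no value for a single mouse, so a difference between LL35 ASO and Luc ASO livers could not be computed from it, and all levels below are descriptions without a test. The fold changes and p-values that stand beside it in the table are the authors' own comparison and were not used. Because a long transcript yields more fragments than a short one, each mean was divided by the merged exon length of the gene, and levels are given per kilobase (kb). The median of the listed genes was 51.5 mean normalized counts per kb, with quartiles of 20.7 and 128. The lowest mean in the table was 15.6, so genes with few reads are not listed, and all positions given here are among listed genes. In bulk liver RNA, the number of cells of a type and the RNA per cell cannot be told apart.

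Chemokines are small secreted proteins that guide leukocytes along gradients. They are classed by the spacing of their first cysteines into CXC, CC, XC and CX3C ligands, and they act through receptors that couple to inhibitory G proteins. In the liver, they are made by sinusoidal endothelial cells, stellate cells, hepatocytes and Kupffer cells, the resident macrophages, and they steer lymphocytes, monocytes and neutrophils in the sinusoids. Atypical receptors lack this G protein signal, and several of them bind and remove chemokines.

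The 6 listed genes are all ligands, 4 of the CXC and 2 of the CC class, and their levels spanned a 54.9-fold range per kb (149-fold with no length scaling). Cxcl12 was highest, at 685 mean normalized counts per kb, and Cxcl9 was lowest, at 12.5. Between them, Ccl9 stood at 252, Cxcl1 at 220, Ccl6 at 131 and Cxcl16 at 25.8. Cxcl12, Ccl9 and Cxcl1 lay above the upper quartile of the listed genes and Ccl6 just above it, while Cxcl16 and Cxcl9 lay below the median. Ccl6 fell below the upper quartile with either other length, with no length scaling and with a minimum mean of 50, and Cxcl1 did so with no length scaling. On merged exon length, the step from Ccl6 to Cxcl16 was 5.07-fold and that from Ccl9 to Cxcl1 was 1.15-fold. With no length scaling these steps were 3.01-fold and 1.86-fold, and that from Cxcl12 to Ccl9, 2.72-fold on merged exon length, was 7.29-fold. With no spread between mice, it is not known which neighbours differ beyond their error.

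**Figure D1:**
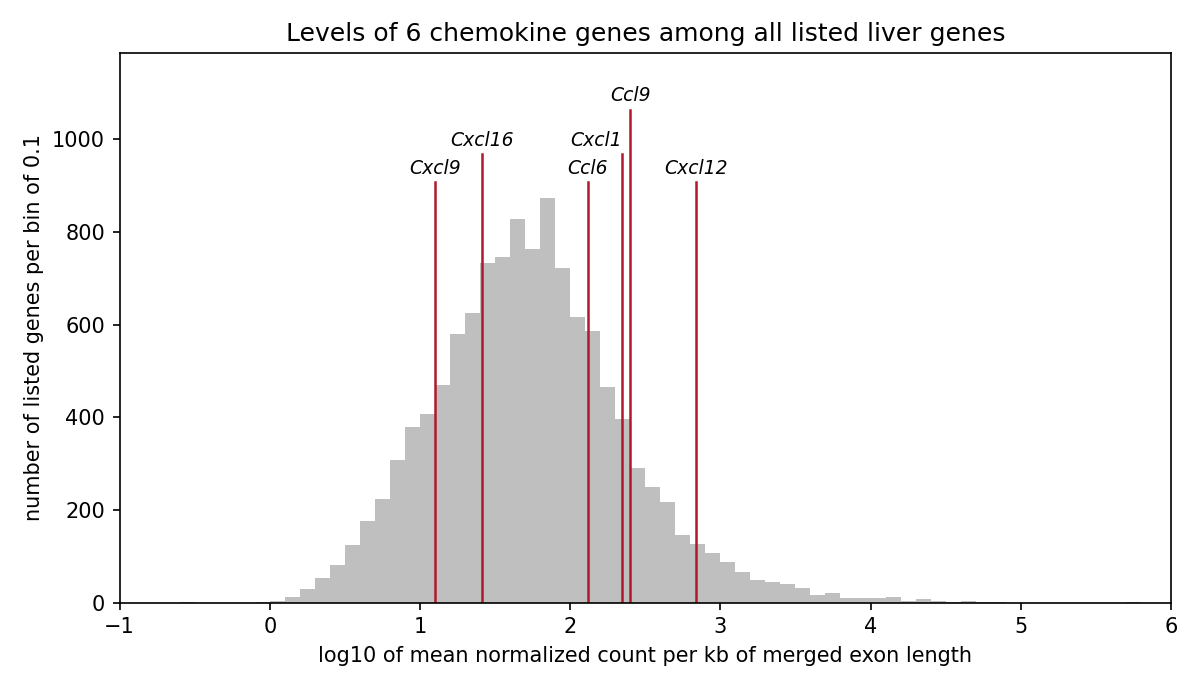
Number of listed liver genes (vertical axis, grey bars) by log10 of the mean normalized count per kb of merged exon length (horizontal axis, bins of 0.1), with a red line at each of the 6 chemokine genes. Cxcl12, Ccl9, Cxcl1 and Ccl6 stand right of the median of 51.5, and Cxcl16 and Cxcl9 stand left of it.

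Cxcl12 is the ligand of Cxcr4 and of the atypical receptor Ackr3, and holds haematopoietic cells and lymphocytes in place in many tissues. Its mean normalized count was 5604, and 94.8% of the listed genes had a lower level per kb. This was 13.3 times the median of the listed genes. Cxcl12 made up 49.5% of the summed level per kb of the 10 listed chemokine ligands (76.0% of their summed means with no length scaling). The other members together with it made up 95.8% per kb. The members were chosen with earlier results on these livers known, and only 10 of 41 ligands are listed, so these shares are descriptions only. The annotation gives Cxcl12 4 transcripts and a merged exon length of 8176 bases, against 5627 bases for its longest protein-coding transcript, on which the level was 996 mean normalized counts per kb. Its receptor Cxcr4 had a mean normalized count of only 47.6, against a median of 235 for the listed genes. Per kb Cxcr4 was at 26.3, so the ligand's level was 26.0 times that of the receptor. This ratio was 37.8 on the coding transcripts and 118 with no length scaling. Ackr3 is not among the genes analysed here.

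Cxcl1 is a neutrophil attractant that acts through Cxcr2. Its mean normalized count was 412, and 84.9% of the listed genes had a lower level per kb. This level depends on the length taken for the gene. The merged exons of Cxcl1 form 1 unbroken block of 1875 bases, because an annotated transcript retains its introns, whereas the longest protein-coding transcript has 953 bases. On the latter length the level of Cxcl1 was 433 mean normalized counts per kb, which put it above Ccl9 (256) by a factor of 1.69 and below Cxcl12 alone among the members. The count may include reads from the retained introns, which this length leaves out, so 433 may be too high. The genes around Cxcl1 in the annotation are also CXC ligands: Cxcl3, Cxcl15 and Cxcl2 lie within 2 protein-coding genes of it, and Cxcl1 is the only one of these that is listed. Cxcr2 is not among the genes analysed here.

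Ccl9 and Ccl6 are CC ligands of rodents that attract myeloid cells through Ccr1. The mean normalized count was 769 for Ccl9 and 235 for Ccl6. Of the listed genes, 86.8% had a lower level per kb than Ccl9 and 75.5% a lower one than Ccl6, and Ccl9 was 1.93 times as high as Ccl6 on this scale. With no length scaling the ratio was 3.28, and on the coding transcripts it was 1.57. The genes are next to each other among the protein-coding genes of the annotation, and the next chemokine gene on the side of Ccl9 is Ccl5, an attractant of T cells. Ccl5 is listed with a mean normalized count of 17.9, near the lowest in the table, and with 18.7 per kb. The adjacent Ccl9, Ccl6 and Ccl5 thus differed widely in level. Ccl3, on the other side of Ccl6, and the receptor Ccr1 are not among the genes analysed here.

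Cxcl16 is made as a membrane protein that is cut off by the proteases Adam10 and Adam17, and its receptor is Cxcr6, carried by natural killer T cells of the sinusoids. Its mean normalized count was 77.9, at 0.501 times the median of the listed genes per kb, and 30.2% of the listed genes had a lower level. The protease genes were higher than their substrate, with 109 mean normalized counts per kb for Adam10 and 60.1 for Adam17. Exons of Zmynd15 on the other strand cover 18.3% of the merged exon length of Cxcl16. Zmynd15, named after its values were seen, had a mean normalized count of 24.6. The library kit keeps strand, but the sources used here do not state whether the counting did, so reads of the 2 genes in this stretch may not be told apart. Cxcr6 is not among the genes analysed here.

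Cxcl9 is an attractant of activated T cells and natural killer cells through Cxcr3, and is induced by interferon gamma. It had the lowest mean normalized count of the 6 listed members, 37.6, and 15.2% of the listed genes had a lower level per kb. Cxcl11, another Cxcr3 ligand, was near it, with 9.75 mean normalized counts per kb against 12.5 for Cxcl9. The annotation, made on the C57BL/6J genome, types Cxcl11 as a polymorphic pseudogene, whereas these mice were Balb/c. Cxcl10, the remaining ligand of this receptor, lies 2 protein-coding genes from Cxcl9 in the annotation, and neither it nor Cxcr3 was analysed here. Upstream of Cxcl9, the interferon gamma receptor genes Ifngr1 and Ifngr2 had 97.8 and 71.0 mean normalized counts per kb, and the transcription factor gene Irf1 had 78.7.

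**Figure D2:**
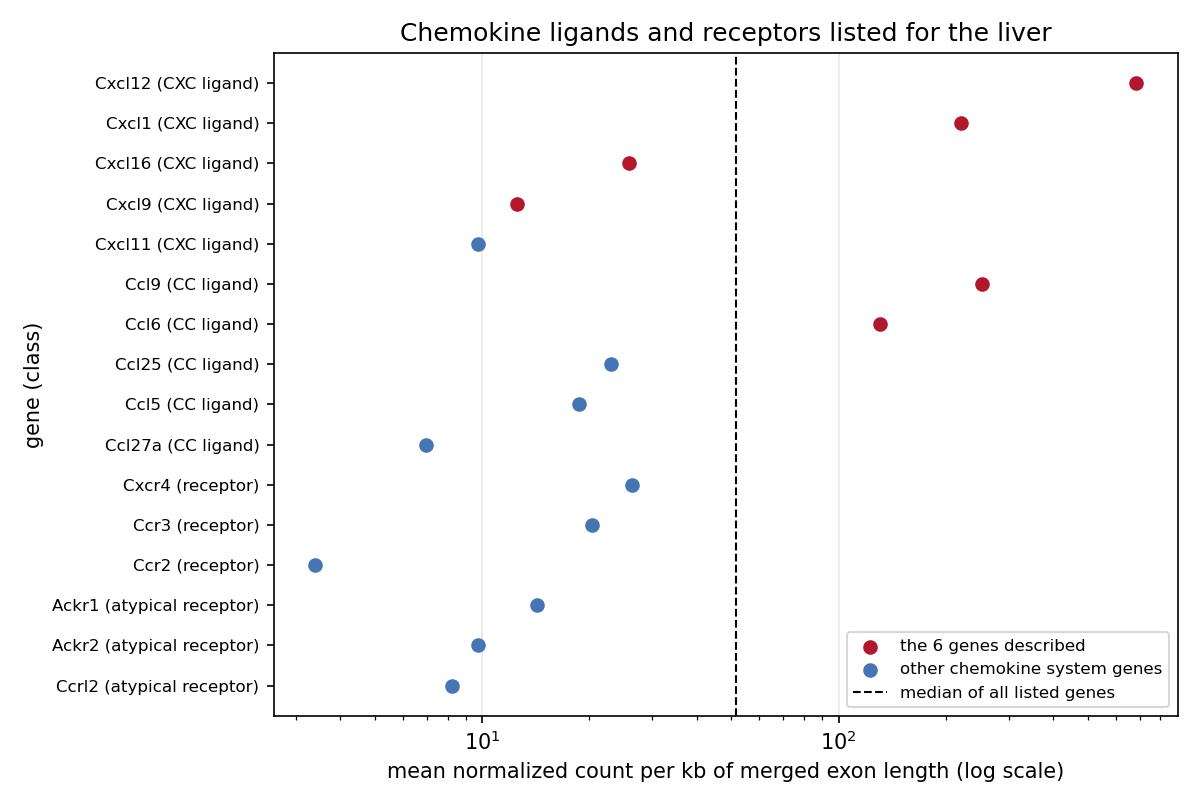
Mean normalized count per kb of merged exon length (horizontal axis, log scale) of 16 listed chemokine ligands and receptors, by class, with the 6 members in red, the other 10 genes in blue and the median of all listed genes as a dashed line. Only Cxcl12, Cxcl1, Ccl9 and Ccl6 lie right of the median, and the receptors lie between 3.40 and 26.3.

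Of 64 chemokine ligand and receptor genes in the lists used here, 16 are listed, among them 10 of 41 ligands and 6 of 23 receptors. The 10 that are not members had levels between 3.40 and 26.3 mean normalized counts per kb, with a median of 12.0, and none was above the median of the listed genes. The 6 members, all ligands, had a median of 175, while the 4 other listed ligands had a median of 14.2. Cxcl16 (25.8) and Cxcl9 (12.5) lay within the range of the 10 other genes, so not all members stood above them. Since the members were chosen with earlier results on these livers known, and genes with few reads are not listed, this contrast was not tested. The other listed ligands were Ccl25 (23.0 mean normalized counts per kb), a ligand of Ccr9, then Ccl5, Cxcl11 and Ccl27a (6.98). Ccl5 and Ccl27a had mean normalized counts of 17.9 and 16.6, near the lowest listed mean of 15.6. No XC or CX3C ligand was among the genes analysed.

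Beside Cxcr4, the signalling receptors described here are Ccr3, the receptor of Ccl24, with 20.4 mean normalized counts per kb, and Ccr2, the receptor of inflammatory monocytes, with 3.40. The atypical receptors Ackr1, Ackr2 and Ccrl2 had 14.3, 9.72 and 8.21. Among these receptors, Cxcr4 is the only main signalling receptor of a listed member, and those of Cxcl1, Cxcl9, Cxcl16, Ccl6 and Ccl9 were not analysed here. Dpp4, a protease that trims the amino end of Cxcl12 and of the Cxcr3 ligands, had 224 mean normalized counts per kb. Genes that act downstream of chemokine receptors were at 212 (Gnai2, a subunit of the inhibitory G protein) and 81.7 (Arrb2, an arrestin). The NF-kappaB subunit genes Rela and Nfkb1, which drive Cxcl1 among other chemokines, were at 183 and 40.8.

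The labelled tissue was checked with marker genes. All 5 hepatocyte markers were listed, at 15344 to 519843 mean normalized counts per kb, and Alb alone made up 10.8% of the summed means of the table (11299288 normalized counts). All 6 Kupffer cell markers were listed (55.4 to 791 per kb, led by Clec4f), as were all 4 sinusoidal endothelial (41.4 to 289) and all 4 stellate cell markers (13.8 to 265). Cxcl12, at 685 per kb, was above each of these endothelial and stellate markers and within the range of the Kupffer cell markers. Ccl9, Cxcl1 and Ccl6 fell within the range of the Kupffer cell, the sinusoidal endothelial and the stellate cell markers alike. For Cxcl12 as for these genes, a place among marker levels does not show the cell type of origin. Few markers of blood leukocytes were listed. They were 1 of 4 for T cells (Cd3e, 4.56 per kb), 0 of 3 for natural killer cells and 0 of 3 for B cells. For monocytes 1 of 3 was listed (Ccr2), for dendritic cells 1 of 3 (Clec9a, 13.8) and for neutrophils 2 of 3 (S100a8 at 33.1 and S100a9 at 35.9). The mean normalized counts of Cd3e (18.6), S100a9 (18.8), Ccr2 (23.0) and S100a8 (23.0) were near the lowest listed mean of 15.6, and that of Clec9a was 45.5. A marker that is not listed has no measured level here. Of the other lists, 1 of 4 cholangiocyte markers (Sox9, 9.94 per kb) and 2 of 3 erythroid ones (Hba-a1 at 389 and Hbb-bt at 60.9) were listed. Which cells the chemokine transcripts came from was not tested.

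**Figure D3:**
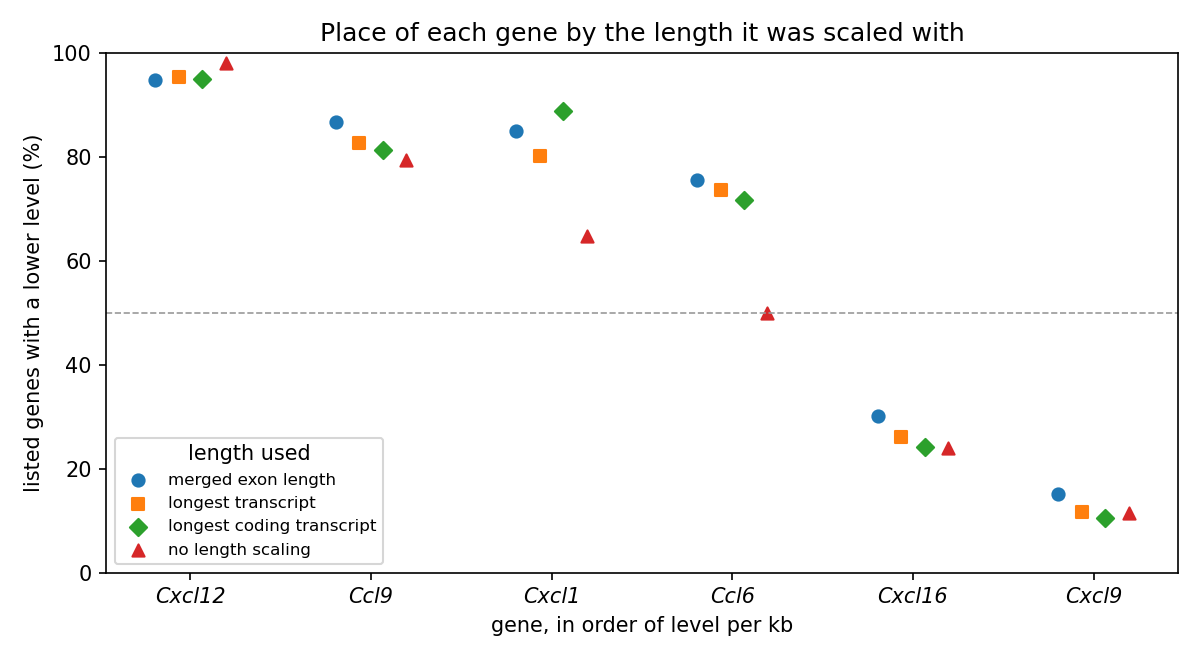
Share of listed genes with a lower level (vertical axis, %) for each of the 6 members (horizontal axis, in order of level per kb), with the mean normalized count divided by merged exon length, by the longest transcript, by the longest protein-coding transcript or by no length. Ccl6 moved most, from the middle of the listed genes with no length scaling to 75.5% with merged exon length, followed by Cxcl1, from 64.8% with no length scaling to 88.9% with the coding transcript, and Cxcl16 and Cxcl9 stayed below 50% in all 4.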

How the data were processed

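Liver RNA was depleted of rRNA, made into directional libraries and sequenced by the authors, who aligned reads with STAR 2.5.3a, counted them on Ensembl genes and normalized them with DESeq2 (RLE method). The genome build is not given in the sources used here. The deposited table gives the mean normalized count of each gene, a signal averaged by the authors over the compared livers. Its columns of fold change, standard error, Wald statistic, p-value and adjusted p-value are the authors' own comparison and were not used. Depth per mouse is unknown, so no interval or detection limit is given. Ensembl identifiers were matched to GENCODE M21 (GRCm38) for 11754 of 11779 genes, and the other 25 were left out of levels per kb. Merged exon length is the number of bases in any annotated exon. No coordinates are given, since the build may differ. Members and gene lists were chosen with earlier results of these data known. Named are the members, their known receptors, the listed genes of the chemokine lists, processing and signalling partners, genes near members and the markers. Of these, Zmynd15 was named after its values were seen. Some genes of the lists are not reported here. Alternatives changed the length, the background (protein-coding genes) and a minimum mean of 50. Functions were tested on simulated data. Python 3.11.15, numpy 2.4.6, pandas 2.3.3, scipy 1.17.1 and matplotlib 3.10.9 were used.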

Additional observations from a re-analysis of the deposited data

How the results depend on the processing

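Of the 6 members, 4 had a level above the median of the listed genes per kb, and 4 did with the longest transcript as length, with the background of protein-coding genes, and with a minimum mean normalized count of 50, which left 5 members. With no length scaling 3 did, since Ccl6 then lay at the median. The place of Ccl6 above the upper quartile (75.5% of listed genes lower) was lost with the longest transcript (73.6%), the coding transcript (71.7%), the minimum mean of 50 (71.1%) and no length scaling, and that of Cxcl1 with no length scaling alone (64.8%). The order of the members was the same with the longest transcript and with no length scaling. With the longest protein-coding transcript as length, an alternative chosen after seeing the data, 2 members changed place, Ccl9 and Cxcl1. The shares of listed genes below each member moved by at most 0.434 percentage points with protein-coding genes only. They fell by up to 25.5 points with no length scaling (Ccl6), by up to 11.5 points with the minimum mean of 50 (Cxcl16), by up to 6.10 points with the coding transcript and by up to 4.82 points with the longest transcript. Of the 16 chemokine system genes described, 7 had a mean of at least 50, a count also chosen after seeing the data. No paired analysis was possible because the table holds no values for single mice, and for the same reason no mouse could be left out in turn. The depth of single libraries is unknown, and genes with means under 15.6 are not listed.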
